A study of Mus musculus with 38 samples.

Results

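The 6 kinases of the ERK branch of MAP kinase signalling described here, of 23420 genes counted, were measured in activated and neighbouring granule cells of the mouse dentate gyrus. These were *Map2k1* and *Map2k2* (MEK1 and MEK2), *Mapk3* (ERK1), *Mapk4* and *Mapk6* (the atypical kinases ERK4 and ERK3) and *Mapkapk5* (MK5). The genes were taken by symbol and were chosen by their dVenus+ against dVenus- values in these same libraries, so that contrast is given for them as a description. Counts of genes past a threshold in it are printed beside the share of all genes, and nothing about the 6 genes is read from them. In *Arc*::dVenus mice, a C57BL/6J line, a destabilized Venus protein is driven by the promoter of the immediate early gene *Arc*, so that recently active neurons are green. All animals were males of 8 to 12 weeks, per the study's methods, and all carried the reporter. Each of 19 mice gave 1 library of 10 aspirated dVenus+ cells and 1 library of 10 aspirated dVenus- cells, and every library is therefore a pool of cells of 1 animal. Fear conditioned mice (FC, n = 12) had received 3 tones paired with foot shocks and no-shock mice (NS, n = 4) had gone through that session, tones included, with the shocks left out, both 24 h earlier, while home-cage mice (HC, n = 3) were naive.

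In the conventional cascade, MEK1 and MEK2 are dual specificity kinases that phosphorylate the conventional ERK proteins such as ERK1, which in turn act on cytoplasmic and nuclear targets and have long been linked to synaptic plasticity and memory in the hippocampus. ERK3 and ERK4 are called atypical because their activation loop has a single phosphorylation site and because MEK1 and MEK2 do not activate them. Group I p21-activated kinases phosphorylate that site, and the best known partner of both proteins is the kinase MK5.

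The libraries held between 1352288 and 18394761 counts on genes (median 8013005). By the prefix of the sample identifier in the labels, those of FC mice fell into 3 sets, of 2, 4 and 6 mice. Those of all NS and HC mice fell into a further set. These sets are called runs here, although the labels do not say what the prefix stands for. The study's methods name 3 replicate experiments, of 6, 4 and 2 FC mice. Fear conditioning and run therefore cannot be told apart in levels. The same holds for differences of the dVenus+ against dVenus- contrast between FC and other mice. Both libraries of a mouse were in the same run. *Arc* itself was above every dVenus- library of its group in all dVenus+ libraries. Its level was 868 ± 311 normalized CPM (SD, n = 12) in FC dVenus+ and 27.7 ± 55.8 (SD, n = 12) in FC dVenus- cells. Normalized CPM are counts scaled to library size with TMM factors. The summed level of 8 granule cell markers was lower in green cells than in their neighbours in 12 of 12 FC mice, although *Prox1* was counted in every FC library, and the sum of 8 microglial markers was higher in 11 of 12. In the other groups the granule cell sum was higher in green cells in 0 of 4 NS and 0 of 3 HC mice. The microglial sum was higher in green cells in 4 of 4 NS and 2 of 3 HC mice.

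All 6 genes had at least 10 counts in 14 of 38 libraries, 5 of them in 11 libraries and 4 in 10 libraries. Levels of different genes were compared per kilobase of annotated exon. In FC dVenus+ cells *Map2k1* was highest, with a median of 116 normalized CPM per kilobase, followed by *Mapk4* with 36.9, *Mapk3* with 26.4, *Map2k2* with 18.9, *Mapk6* with 3.89 and *Mapkapk5* with 3.16. The medians of the 3 genes after *Map2k1*, and those of the last pair, lay within the spread between libraries. In FC dVenus- cells the order was *Map2k1* (119), *Mapk3* (39.6), *Map2k2* (7.58), *Mapk4* (0.329), *Mapk6* (0.213) and *Mapkapk5* (0.0839), in the same unit.

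**Figure D1:**
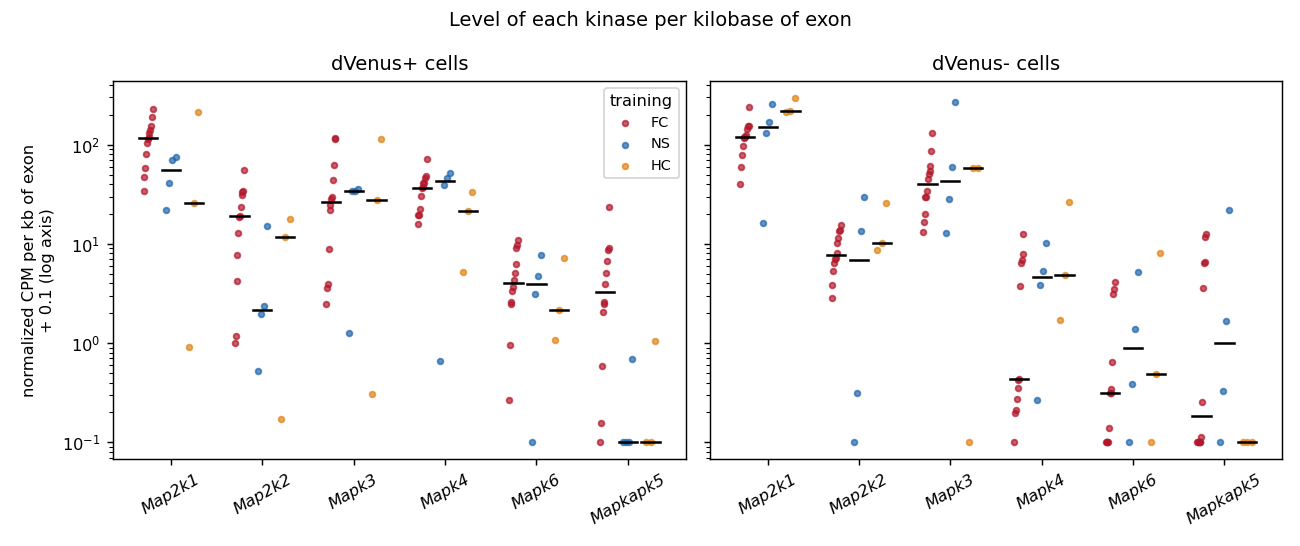
Level of each kinase in normalized CPM per kilobase of exon, plus 0.1, on a log axis, in dVenus+ cells and dVenus- cells. Points are libraries, coloured by training (FC n = 12, NS n = 4, HC n = 3), and black bars are medians: *Mapk4* in FC mice has a median of 36.9 in dVenus+ cells and 0.329 in dVenus- cells.

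*Map2k1*, which encodes MEK1, lies at chr9:64185770-64253631 on the minus strand (GRCm38). Its level in FC dVenus+ libraries was 116 at the lowest, 395 at the median and 779 at the highest, in normalized CPM. In FC dVenus- libraries the same values were 137, 404 and 804. Both ranges overlapped almost in full, 4 of 12 mice were higher in dVenus+ cells, and the fitted log2 fold change of dVenus+ over dVenus- was -0.07 (SE 0.27). In NS mice 18, 19, 20 and 21 the dVenus+ libraries held 252, 74.7, 240 and 140 normalized CPM and the dVenus- libraries 872, 54.9, 440 and 573. Mouse 19 was the exception among mice that were otherwise lower in dVenus+ cells. In HC mice 15, 16 and 17 dVenus+ cells had 86.7, 2.79 and 718 and dVenus- cells 721, 997 and 745 normalized CPM. Every HC dVenus+ library was thus below every HC dVenus- library, by very little in mouse 17, as held for 5.92% of all genes tested in HC. The fitted log2 fold changes were -1.12 (SE 0.76) in NS and -3.34 (SE 1.46) in HC, and without single HC mice the latter lay between -5.43 and -1.69. The contrast in FC exceeded that in HC by 3.07 (SE 1.04), a difference built from the values that chose the genes.

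*Map2k2* (MEK2, chr10:81105915-81133975, plus strand) was more variable. In FC mice its lowest, median and highest levels were 5.07, 107 and 313 normalized CPM in dVenus+ cells, against 15.5, 42.9 and 87.5 in dVenus- cells. Of the 12 dVenus+ libraries, 7 were above every dVenus- library, but 2 were below every one, those of mice 05 and 07. The fitted log2 fold change was 0.87 (SE 0.54), with 8 of 12 mice higher in dVenus+ cells. In NS mice 18 to 21 the dVenus+ libraries had 84.9, 2.38, 12.9 and 10.5 and the dVenus- libraries 1.22, 0, 169 and 76.3 normalized CPM. A pair of mice was higher and a pair lower, and the sign of the fitted value, -1.0 (SE 2.12), changed between methods. In HC mice the value was -1.64 (SE 1.85), with 1 of 3 mice higher.

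*Mapk3*, the gene of ERK1 (chr7:126759601-126765819, plus strand), spanned 5.30 to 266 normalized CPM in FC dVenus+ libraries (median 59.5) and 29.6 to 296 in FC dVenus- libraries (median 89.5). The ranges overlapped, with 4 dVenus+ libraries below every dVenus- library, in mice 01, 03, 09 and 12. The fitted log2 fold change was -0.78 (SE 0.57), and 8 of 12 mice were lower in dVenus+ cells. In NS mice 18 to 21 *Mapk3* had 77.5, 75.9, 2.62 and 79.9 normalized CPM in dVenus+ cells and 611, 28.9, 63.2 and 133 in dVenus- cells. The fitted value was -1.58 (SE 1.15), and mouse 19 again ran against the other mice. In HC mice 15 to 17 dVenus+ cells had 62.3, 0.465 and 255 and dVenus- cells 131, 0 and 132 normalized CPM, so that *Mapk3* was near 0 in both libraries of mouse 16.

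*Mapk4* encodes ERK4 and lies at chr18:73928486-74065359 on the minus strand. Its exons share 258 bases with the opposite strand gene *Gm9925*. In FC mice the lowest, median and highest dVenus+ libraries had 84.5, 199 and 390.5 normalized CPM. The dVenus- libraries had 0, 1.78 and 66.8 in the same order. In normalized CPM the groups did not overlap: every dVenus+ library was above every dVenus- library, which held for 0.0927% of all genes tested in FC. Relative to total counts alone, without TMM factors, they did overlap. The dVenus+ library of mouse 07 had 600 *Mapk4* counts among 11151828, and the dVenus- library of mouse 14 had 618 among 9241471. The dVenus- libraries themselves fell in a lower range of 7 libraries at no more than 1.82 normalized CPM and an upper range of 5 libraries, those of mice 01, 09, 10, 13 and 14, from 19.6 to 66.8. *Arc* was above 40 normalized CPM in the dVenus- libraries of mice 06, 07 and 14 (108, 48.1 and 172), and *Mapk4* was at 1.35, 0.527 and 41.7 there.

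All 12 FC mice had more *Mapk4* in dVenus+ than in dVenus- cells, by 1.71 to 7.37 on the log2(CPM + 1) scale. The fitted log2 fold change was 4.92 (SE 0.70), a 30.3-fold difference. In pools of cells, more RNA per cell and more cells with the RNA cannot be told apart. It ranked 19th from the highest of 9709 genes tested. Leaving out single mice gave 4.46 to 5.34. The value was 3.98 in the run of 2 mice, 7.32 in the run of 4 mice and 3.67 in the run of 6 mice.

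In NS mice 18, 19, 20 and 21 *Mapk4* had 280, 2.98, 212 and 249 normalized CPM in dVenus+ cells and 20.3, 0.903, 55.0 and 28.4 in dVenus- cells. All 4 mice were higher in dVenus+ cells, and in mouse 19 the gene was low in both libraries. The fitted log2 fold change was 2.86 (SE 1.15). In HC mice 15, 16 and 17 the values were 179, 114 and 27.6 in dVenus+ and 8.68, 25.8 and 141 in dVenus- cells, and mouse 17 had the opposite order of the other two. The fitted value was 1.48 (SE 1.95), and it was -0.29 without mouse 15. The contrast was larger in FC than in NS mice by 2.02 (SE 1.35) and larger than in HC mice by 3.24 (SE 1.65), in log2 units, which again describes values used to choose the gene.

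*Mapk6*, the gene of ERK3 (chr9:75369062-75410005, minus strand), had a far lower level per kilobase than *Mapk4* in green cells (3.89 against 36.9 normalized CPM per kilobase). In FC dVenus+ libraries its lowest, median and highest levels were 1.13, 26.0 and 71.6 normalized CPM. In FC dVenus- libraries they were 0, 1.42 and 26.7, and 4 of these 12 libraries had no count. The groups overlapped, with 6 dVenus+ libraries above every dVenus- library and 11 of 12 mice higher in dVenus+ cells. Mouse 04 was the exception, with 21.8 in dVenus+ and 26.7 in dVenus- cells. The fitted log2 fold change was 3.62 (SE 0.90), a 12.3-fold difference, and 3.34 to 4.10 without single mice. It was 1.69, 2.78 and 5.02 in the runs of 2, 4 and 6 mice.

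In NS mice 18 to 21 *Mapk6* had 19.9, 50.3, 0 and 30.9 normalized CPM in dVenus+ cells against 33.9, 0, 8.56 and 1.92 in dVenus- cells. Mice 19 and 21 were higher and mice 18 and 20 lower in dVenus+ cells, and the fitted value was 1.32 (SE 1.87). In HC mice 15 to 17 it had 47.5, 6.51 and 13.8 in dVenus+ against 52.8, 2.62 and 0 in dVenus- cells. The fitted value was 1.53 (SE 2.08), with 2 of 3 mice higher. The contrast in FC exceeded that in NS by 2.20 (SE 1.98) and that in HC by 1.95 (SE 2.18), values of the same kind. The FC log2 fold change was 2.35 when the mouse was left out of the model and 4.51 with the older quasi-likelihood method.

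*Mapkapk5* (MK5, chr5:121525038-121545905, minus strand) shares 1805 bases of exon with *Adam1a* on the same strand, so its reads could be lost or divided in counting. In FC dVenus+ libraries it had 0 to 74.2 normalized CPM (median 10.1), and in FC dVenus- libraries 0 to 39.5 (median 0.268). The groups overlapped, 7 of 12 mice were higher in dVenus+ cells and the fitted log2 fold change was 1.28 (SE 1.22) in edgeR and 3.38 in DESeq2. In NS and HC mice it fell below the count filter. Counts of 0 were found in 3 of 4 NS dVenus+ libraries, 2 of 3 HC dVenus+ libraries and 3 of 3 HC dVenus- libraries, while the NS dVenus- library of mouse 18 had 69.7 normalized CPM. In the fit over all groups the contrast differed by 6.40 (SE 3.55) between FC and NS, by -5.42 (SE 7.81) between FC and HC and by -11.82 (SE 7.86) between NS and HC. These values rest on groups whose libraries were mostly at 0, and no direction is read from them.

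The study asked about transcription that depends on CREB, a factor known to bind the cAMP response element and its short form, TGACG. RefSeq promoter windows (GRCm38.p6, from 250 bases before to 50 after the annotated start) were given for *Map2k1*, *Map2k2*, *Mapk6* and *Mapkapk5*, and no window for *Mapk3* and *Mapk4* was used. The short form was searched on both strands (TGACG or CGTCA), and 20.8% of 32851 promoter windows hold it. It was found in *Mapk6* (1 of 2 windows), *Map2k1* and *Mapkapk5*, and not in *Map2k2*. The stretches around the first match of each are shown on the minus strand, the strand of the genes, to set a member that was higher in green cells beside a pair with smaller fitted values in FC, with matches in capitals.
*Mapk6*, chr9:75410029-75410083: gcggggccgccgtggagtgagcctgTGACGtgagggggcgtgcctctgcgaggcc
*Map2k1*, chr9:64253725-64253779: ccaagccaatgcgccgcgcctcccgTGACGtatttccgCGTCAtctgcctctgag
*Mapkapk5*, chr5:121545949-121546003: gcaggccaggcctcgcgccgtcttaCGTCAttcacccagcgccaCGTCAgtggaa
The matches began at -42, -149 and -86 bases from the annotated start. The full element, TGACGTCA, is in 1.79% of the windows and in none of these 5. A match describes letters only, and its part in the levels of these genes was not tested. It was present both in *Mapk6*, which was higher in green cells, and in *Map2k1*, whose FC log2 fold change was -0.07.

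**Figure D2:**
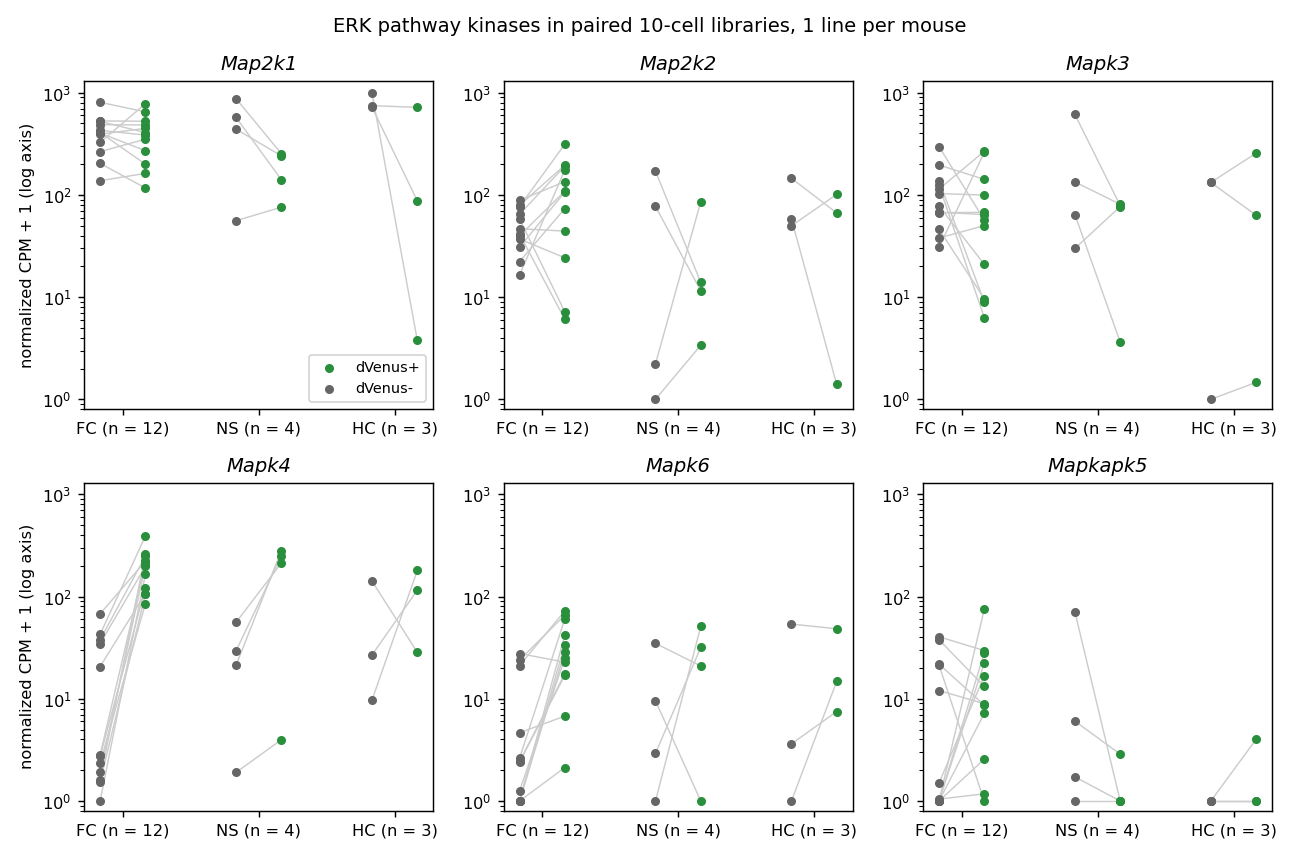
Normalized CPM plus 1 (log axis) of each kinase in every library. Grey points are dVenus- and green points dVenus+ libraries, and a line joins the libraries of 1 mouse (FC n = 12, NS n = 4, HC n = 3). *Mapk4* rises along all 12 FC lines and the 2 point clouds do not overlap in this unit. The *Map2k1* clouds of FC mice overlap from 137 to 779 normalized CPM.

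Of the 6 genes, *Mapk4* and *Mapk6* were past the threshold in FC mice (adjusted p under 0.05 and absolute log2 fold change over 1, edgeR's quasi-likelihood test), both higher in dVenus+ cells. Among all 9709 genes tested in FC 4.35% were past it, 1.5% higher and 2.84% lower in dVenus+ cells, and the median log2 fold change was -0.11. These values chose the genes, and the count of 2 carries no further information. In NS mice 0 of 5 tested members passed, against 0.0489% of 8187 genes, and in HC mice 0 of 5, against 0% of 7588 genes. The HC fit found 532 genes at an unadjusted p under 0.05 and DESeq2 called 625 genes in HC. For differences of the contrast between training groups 0% of 14075 genes passed in edgeR, with 1152 (FC minus NS), 1304 (FC minus HC) and 968 (NS minus HC) at an unadjusted p under 0.05, and DESeq2 called 1192, 1583 and 1339. Those comparisons share the FC, NS or HC libraries and are not independent of each other. The medians over all genes of the first 2 differences were -0.43 and -0.58.

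**Figure D3:**
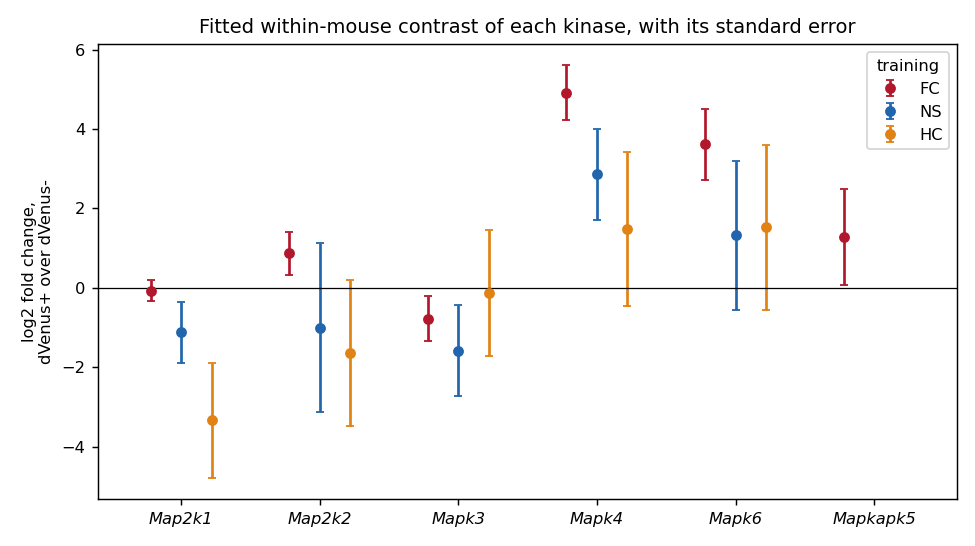
Fitted log2 fold change of dVenus+ over dVenus- cells within mice for each kinase, with its standard error, in FC (n = 12), NS (n = 4) and HC (n = 3) mice. *Mapk4* is at 4.92, 2.86 and 1.48 in FC, NS and HC, and *Map2k1* at -0.07, -1.12 and -3.34 in the same order. *Mapkapk5* was tested in FC mice only.

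The comparison of NS with HC mice asks whether these kinases differ between mice that had the session without shocks and naive mice. It did not choose the genes, and both groups shared 1 run. In dVenus+ cells *Mapk4* had 186 ± 125 normalized CPM in NS (SD, n = 4) and 107 ± 76.0 in HC mice (SD, n = 3), a log2 difference of 0.84 (SE 1.08). *Mapk6* differed by 0.13 (SE 1.42), *Mapk3* by -0.92 (SE 1.26), *Map2k1* by -0.66 (SE 1.07) and *Map2k2* by -0.92 (SE 1.42). Adjusted p-values of the 5 tested members were 0.891 to 0.990 (edgeR with Benjamini-Hochberg adjustment over 8706 genes). Differences of this size were within the spread between mice, and the standard errors leave room for differences of more than 2-fold either way.

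In dVenus- cells *Mapk4* had 26.1 ± 22.4 normalized CPM in NS (SD, n = 4) and 58.5 ± 72.0 in HC mice (SD, n = 3), a log2 difference of -1.15 (SE 1.47). *Map2k1* had 485 ± 339 and 821 ± 153, a difference of -0.82 (SE 0.63), and *Mapk3* differed by 1.10 (SE 1.12). Adjusted p-values of the 5 tested members lay between 0.791 and 0.975 (edgeR with Benjamini-Hochberg adjustment over 8547 genes). No gene passed in either cell type (0% in each), with 773 genes in dVenus+ and 756 in dVenus- cells at an unadjusted p under 0.05, and DESeq2 called 110 and 144 genes, none of them a member.

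The genes around the 6 kinases were grouped by role. Of 10 other genes of the cascade from Raf to ERK5, 6 were tested in FC mice, and 0 were past the threshold, with 0 at an unadjusted p under 0.05 and 0 called by DESeq2. All 6 had log2 fold changes below 0 (median -0.70). The largest were those of *Map2k5* (the kinase of ERK5, -1.13, SE 0.75), *Ksr2* (a scaffold of Raf and MEK, -1.07, SE 0.89) and *Araf* (-0.77, SE 0.51). Of 9 tested scaffolds and anchors, 1 fell: *Pea15a*, whose product holds ERK proteins in the cytoplasm. In FC mice its mean was 262 ± 174 normalized CPM in green cells and 529 ± 237 in their neighbours (SD, n = 12 each), a log2 fold change of -1.11 (SE 0.31, adjusted p = 0.0360, edgeR with Benjamini-Hochberg adjustment), and was lower in 12 of 12 mice. The same direction was found in 4 of 4 NS and 3 of 3 HC mice. The *Pea15a* call held in 5 of 12 fits that left out 1 mouse, with values of -1.24 to -0.97. Without mouse 05 the log2 fold change was under the limit (-0.97), and without mouse 01, 04, 09, 10, 11 or 13 the adjusted p missed the threshold. The call was also lost with the older quasi-likelihood method (-1.12), without the pairing by mouse (-0.99) and in each of the 3 runs alone (-1.36, -1.59 and -0.82), and held in the other 4 of 9 settings. *Shoc2* (1.38, SE 0.76) and *Arrb2* (-1.36, SE 0.79) did not pass.

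Among 6 tested of 11 feedback inhibitors 1 rose: *Spry2* (Sprouty 2), an inhibitor of the Ras to ERK pathway that ERK activity itself can induce. In FC mice it had 54.8, 92.4 and 370 normalized CPM at the lowest, median and highest in dVenus+ libraries and 0.305, 21.5 and 59.1 in dVenus- libraries. It was higher in dVenus+ cells of 12 of 12 mice, and 10 dVenus+ libraries were above every dVenus- library. The log2 fold change was 2.60 (SE 0.55, adjusted p = 0.00557, edgeR with Benjamini-Hochberg adjustment), and the gene passed in 12 of 12 fits without 1 mouse but in none of the 3 runs alone (2.11 to 3.18). In NS mice its log2 fold change was 2.68 (SE 1.32), with 3 of 4 mice higher. In HC mice it was 0.52 (SE 1.75), with 2 of 3 mice higher, and neither value passed. *Spry2* is also the only gene that passed among the 4 tested of 10 genes used as a transcriptional readout of ERK activity. *Dusp7*, a phosphatase of ERK, had -1.66 (SE 0.70), *Spred1* 1.67 (SE 1.05) and the readout gene *Etv5* 2.31 (SE 1.26), none past the threshold.

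Over all 7 lists 2 of 48 tested genes passed in FC mice (4.17%), a share near the 4.35% of all genes. None of the other lists had a gene past the threshold in edgeR. At an unadjusted p under 0.05 were 8 of the 48 (16.7%), beside 1724 of all 9709 genes (17.8%), and DESeq2 called 6 (12.5%), beside 1635 (16.8%). Of the 8, the targets of ERK held 1 gene, the partners of the atypical kinases 1 and the parallel branches 3. DESeq2 called *Elk1*, *Nlk* and *Map2k7* among them and *Dusp7* among the feedback inhibitors. Of 13 kinases and transcription factors activated by ERK, 9 were tested, with a median log2 fold change of 0.01 and the largest value in *Elk1*, a transcription factor phosphorylated by ERK (-1.51, SE 0.58, adjusted p = 0.143, edgeR with Benjamini-Hochberg adjustment, lower in 11 of 12 mice). *Elk3* (0.90, SE 0.84) and *Srf* (-0.84, SE 0.85) followed. Of 10 genes that were partners of the atypical kinases and MK5 or relatives of MK5, such as *Mapkapk2*, 7 were tested, with a median of 0.39. *Pak1*, a group I p21-activated kinase, averaged 56.4 ± 43.3 normalized CPM in green cells and 151 ± 123 in their neighbours (SD, n = 12 each), a log2 fold change of -1.24 (SE 0.52), while *Mapkapk2* (1.36, SE 1.13) and *Ncoa3* (0.78, SE 0.72) were on the other side of 0. Of 12 genes of the p38, JNK and Nlk branches, 9 were tested, with a median of 0.39, and *Nlk* (1.74, SE 0.62), *Map2k7* (-1.49, SE 0.64) and *Mapk8* (1.43, SE 0.70) had the largest values. In NS mice 0 of 44 tested genes of all 7 lists passed in edgeR, 3 were at an unadjusted p under 0.05 (6.82%, beside 8.67% of all genes) and DESeq2 called 4 (9.09%, beside 8.13%). In HC mice these numbers were 0 of 38, 4 (10.5%, beside 7.01%) and 5 (13.2%, beside 8.24%).

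**Figure D4:**
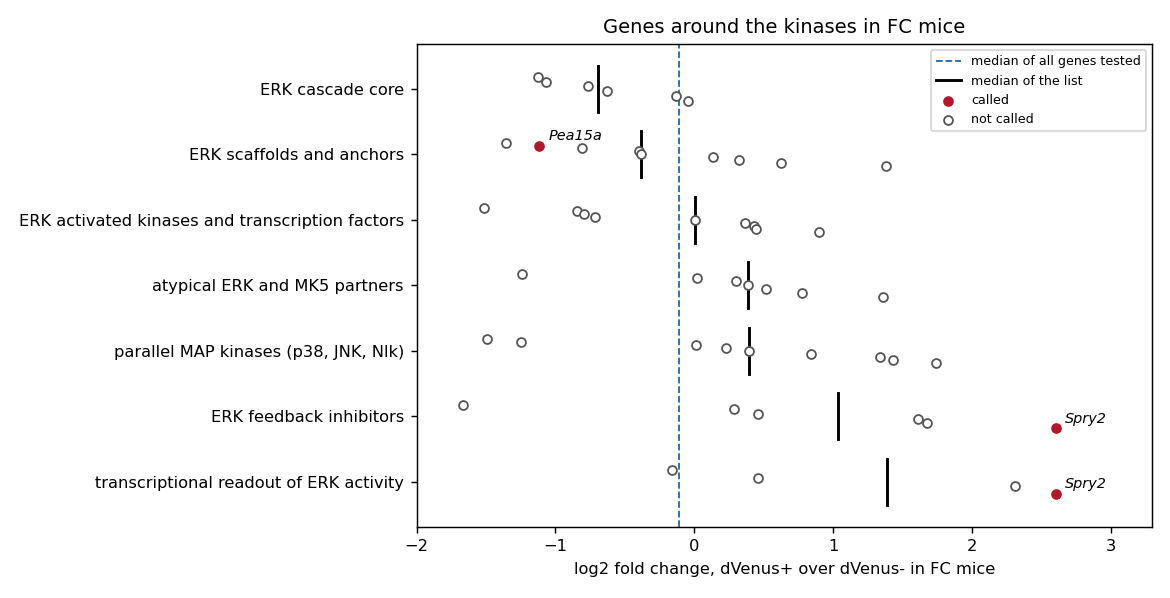
Log2 fold change of dVenus+ over dVenus- cells in FC mice (n = 12) for each tested gene of 7 lists around the kinases. Filled red points are genes past the threshold, *Pea15a* at -1.11 and *Spry2* at 2.60 (in 2 lists), black bars are list medians, and the dashed line is the median of all 9709 genes tested, -0.11.

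Markers of several cell types moved with the same contrast. In FC mice 4 of 8 tested granule cell genes were past the threshold of edgeR's test, lower in dVenus+ cells. The same test called 3 of 6 tested microglial genes, *C1qa*, *C1qc* and *Csf1r*, higher in dVenus+ cells. Among all 9709 genes tested in FC, 2.84% were past it and lower, and 1.5% past it and higher. No gene of either list was past it in NS or HC mice. The summed microglial markers ranged from 32.7 to 1636 normalized CPM in dVenus+ and from 1.12 to 440 in dVenus- libraries. *Tmem119* was at 0 in 6 of 12 dVenus+ and 10 of 12 dVenus- libraries, and *P2ry12* in 4 and 5. *C1qa* and *Csf1r* were each at 0 in 2 and 8, *C1qb* in 2 and 5 and *C1qc* in 1 and 7. *Itgam* was at 0 in 1 and 1 and *Cx3cr1* in 0 and 0. The summed granule cell markers ranged from 131 to 1503 and from 989 to 2717. In NS mice this sum ranged from 333 to 863 in dVenus+ and from 1411 to 1790 in dVenus- libraries. In HC mice it ranged from 306 to 1155 and from 1304 to 2542. Of 4 tested interneuron genes, *Npy* was higher (5.18, adjusted p = 0.00842) and *Gad1* lower (-2.03, adjusted p = 0.0412) in dVenus+ cells of FC mice, by edgeR with Benjamini-Hochberg adjustment, and the interneuron sum was higher in 6 of 12 mice. None of the 3 tested astrocyte genes passed in FC, where the astrocyte sum was higher in dVenus+ cells of 3 of 12 mice, against 3 of 3 HC mice. The part of these markers in the differences of the kinases and of *Spry2* and *Pea15a* was not tested.

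Over all 38 libraries the levels of *Mapk4* were most like those of *Rgs2*, a regulator of G protein signalling (Spearman rho 0.77), followed by *Scg2*, which encodes a secretory granule protein (0.77), the sorting receptor *Sorcs3* (0.76), the neurotrophin *Bdnf* (0.75) and *Penk*, which encodes proenkephalin (0.75), among 8885 candidate genes. Those libraries share the split by dVenus, and within the 12 FC dVenus+ libraries rho was 0.50, 0.38, 0.15, 0.32 and -0.53 in the same order. The levels of *Mapk6* were most like those of *Arpp21* (0.66), *Stxbp5l* (0.63) and *Rgs2* (0.63), and those of *Mapk3* like *Ap1s1* (0.66), *Gm2a* (0.65) and *Gpd2* (0.64). Between *Mapk4* and *Mapk6* rho was 0.38 over the 38 libraries, 0.03 over the 19 dVenus+ libraries and 0.10 over the 19 dVenus- libraries. Between *Map2k1* and *Mapk3* rho was 0.38, 0.34 and 0.26 over the same sets.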

How the data were processed

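The authors aligned reads to mm10 with TopHat2 2.0.13 and counted them per gene with HTSeq 0.6.0, and deposited raw counts of 23420 genes for each of 38 Smart-seq2 libraries. The strand setting of the counting is not given in the sources used here. The deposited tables were used as they stand, without the 5 entries that name no gene. Reads outside genes were 16.4% to 59.7% of a library. Groups and mouse numbers came from sample titles, and runs from the prefix of the sample identifier in the labels. In 10 libraries the description names another sample identifier than the labels, and the title was used for group and mouse. Coordinates and exon lengths are from GENCODE M21 (GRCm38).

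Genes with 10 or more counts in a number of libraries equal to the mice of the group were tested with edgeR 4.0.16 (R 4.3.3), TMM normalization and the quasi-likelihood test of edgeR 4, with mouse as a block as in the study's paired design. Benjamini-Hochberg adjustment ran over all genes tested, and a gene was called at an adjusted p under 0.05 with an absolute log2 fold change over 1. Interactions and NS against HC used at least 10 counts in at least 3 libraries. Standard errors (SE) were derived from the quasi-likelihood test, as the absolute log2 fold change over the square root of its F statistic. Levels are TMM-normalized CPM, and within-mouse differences add 1 CPM. DESeq2 1.42.0 was an alternative. The procedures were tested on counts simulated with a spread common to all genes and no difference between mice other than depth. The edgeR 4 form was then taken and the older form added as an alternative. With that setting, the test does not show which form suits these libraries better.

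Both libraries of a number came from 1 mouse, which is the pairing. Their deviations from group means correlated weakly (median r 0.04 for FC, -0.01 for NS, 0.02 for HC). Named genes were all 6 members, called genes of each list and the 3 with the largest change in FC, and the 5 (*Mapk4*) or 3 (*Mapk6*, *Mapk3*) most correlated genes. Members and lists were chosen with earlier results of these data known. Columns of the authors' own comparisons were not used, and 0 columns were left without a sample. A gene of the cascade list is not reported here.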

Additional observations from a re-analysis of the deposited data

Results flagged for a closer look

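In 4 of 18 sets of 4 NS values 1 library stood apart from the others by Dixon's criterion. Chance passes it in about 1 of 20 sets only where values are normally distributed. These values are skewed and include counts of 0, so the number of flags is not read as an excess. *Mapk3* was at 2.62 normalized CPM in the NS dVenus+ library of mouse 20, where the other NS dVenus+ libraries had 75.9 to 79.9. *Map2k2* was at 84.9 in the NS dVenus+ library of mouse 18, against 2.38 to 12.9 in the others. *Mapkapk5* was at 69.7 in the NS dVenus- library of mouse 18, against 0 to 5.04, and at 1.87 in the NS dVenus+ library of mouse 21, where the others had no count. With the others at 0, any count in that dVenus+ library would have been flagged. The NS log2 fold change of *Mapk3* was -0.94 without mouse 20, and that of *Map2k2* was -2.93 without mouse 18.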

How the results depend on the processing

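The FC values of *Mapk4* and *Mapk6* chose these genes, so their calls, in 7 and 4 of 9 other settings and in all 12 fits without 1 mouse, are no sign of stability. Those 12 fits called 292 to 405 genes and 2 members. The number of FC genes called, 422, was 137 with the older quasi-likelihood method (1 member, *Mapk4*), 1635 with DESeq2 (3 members, *Mapk4*, *Mapk6* and *Mapkapk5*), and 0, 12 and 15 in the runs of 2, 4 and 6 mice alone (0, 1 and 0 members). The runs alone hold fewer mice. Without the replicate block, that is without the pairing by mouse, 487 FC genes and 1 member, *Mapk4*, were called. The 4 NS genes became 11 with DESeq2's size factors (5 higher, against 3 of 4), 0 with the older method, 1 without a count filter, 2 when 5 counts were required in 10 or more of 38 libraries, 666 with DESeq2, 13 without the pairing and 0 to 2 without single mice (mouse 18, 19, 20 or 21 each lowered the count, to 1, 2, 0 and 1). In HC the older method called 2 genes and DESeq2 625, against 0. For differences of the contrast, where edgeR called 0 genes, DESeq2 called 1192 (1 member, *Mapkapk5*) for FC minus NS, 1583 (3 members, *Map2k1*, *Mapk4* and *Mapkapk5*) for FC minus HC and 1339 (1 member, *Mapkapk5*) for NS minus HC, 14, 8 and 32 were called without the pairing, and the older method called 1 for NS minus HC. For NS against HC, DESeq2 called 110 genes in dVenus+ and 144 in dVenus- cells, and leaving out single libraries gave 0 in dVenus+ and 0 to 8 in dVenus- cells, 3 without HC dVenus- mouse 16 and 8 without mouse 17.

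Signs of members that had not been called turned in some settings. *Map2k1* (0.082) and *Map2k2* (-0.015) turned in FC in the run of 4 mice, *Map2k2* in NS with the older method (0.98) and DESeq2 (1.14), and *Mapk3* in HC with the older method and DESeq2 (0.57 each) and without the pairing (0.15). Without single mice, *Map2k2* in NS ranged from -2.93 to 1.55, and *Mapk3* and *Mapk4* in HC from -1.10 to 0.89 and from -0.29 to 3.02. Without single libraries, NS against HC ranged in dVenus+ cells from -0.39 to 1.18 (*Mapk6*), -1.50 to 0.94 (*Mapk3*) and -1.24 to 2.06 (*Map2k1*), and in dVenus- cells from -2.28 to 3.31 (*Mapk6*), -1.68 to 0.28 (*Map2k2*), -1.97 to 0.65 (*Mapk4*) and -0.22 to 1.46 (*Mapk3*). The cause was not tested. With DESeq2's size factors the medians of all genes moved from -0.43 to -0.26 for FC minus NS and from -0.58 to -0.30 for FC minus HC. All 72 group levels moved by less than 1 SD with the other scalings, but in HC mice the order of the group means turned with CPM without TMM for *Mapk4* (57.4 in dVenus+ and 79.7 in dVenus- cells), *Mapk6* (15.0 and 28.2) and *Mapk3* (98.7 and 134.6), and in FC mice that of *Map2k1* turned with DESeq2's size factors. Each library pools 10 cells, so a count of 0 in one does not show that a gene is absent, and with 4 NS and 3 HC mice the standard errors of the members were 0.76 to 2.12 and 1.46 to 2.08 (log2).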
